A study of Mus musculus with 32 samples.

Results

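The 10 genes described here, Alppl2, Slc34a2, Exoc3l2, Ube2o, Fbxo15, Hipk1, Btbd18, Bod1l, Akap8 and Bclaf1, are protein-coding genes present in a single copy that were picked by name for strong falls in RNA at the 2-cell stage after the histone acetyltransferase inhibitor A-485 or the deacetylase inhibitor trichostatin A (TSA). They were 10 of 55385 genes in the RNA tables, of which 21897 were annotated as protein-coding. The falls chose the genes, with no numerical threshold, so there are no values just inside or outside a limit to give, and their inhibitor changes stand below as a description without p-values.

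At fertilization the mouse genome is silent, and the embryo starts to transcribe it in a weak minor wave in the zygote and a strong major wave in the late 2-cell embryo, while RNA stored in the egg is destroyed. CBP and p300 are acetyltransferases that place acetyl groups on lysine 27 of histone H3 (H3K27ac) at active promoters and enhancers, and A-485 blocks their catalytic site. TSA blocks histone deacetylases, the enzymes that take acetyl groups off.

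All embryos were wild-type B6D2F1/J x B6D2F1/J crosses made by in vitro fertilization from parents of 6 to 8 weeks and grown in KSOM medium. For the A-485 experiment, embryos were kept in 10 µM A-485 or in the solvent DMSO from 4 to 20 hours post insemination (hpi) and taken at the zygote stage and at the early and the late 2-cell stage. The paper reports that the inhibitor was then washed off and that global H3K27ac returned to that of controls. Late 2-cell A-485 embryos were thus taken after its removal, and embryos "under A-485" below include them. For the TSA experiment, embryos were kept in 50 nM TSA or DMSO from 8 to 28 hpi and taken at the late 2-cell stage, so this stage has a DMSO group in each experiment, told apart by the prefix of the sample titles. Each of the 8 RNA groups held 2 libraries, and 13206163 to 32585987 expected counts were assigned to genes per library. Open chromatin was measured by ATAC-seq at the late 1-cell and the early 2-cell stage, with DMSO or A-485, as 1 peak list per stage and treatment. The replicates' origin from separate collections of embryos is not stated, so p-values measure the spread between these samples only. A library is made from whole embryos and its values are scaled to its own total, so fewer transcribing embryos or blastomeres and less RNA per blastomere cannot be told apart.

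Marker RNA told the stages apart in DMSO embryos, while early 2-cell A-485 embryos stood close to zygotes on the 2-cell markers. The summed level of 5 markers of the 2-cell embryo was 3.17 to 7.67 FPKM (fragments scaled to gene length and to the library total, a level per length) in zygotes and 353 to 415 FPKM in early 2-cell DMSO embryos, but 6.58 to 7.87 FPKM in early 2-cell A-485 embryos. It was 221 to 235 FPKM in late 2-cell DMSO against 51.3 to 51.8 FPKM in A-485 embryos, and 137 to 165 FPKM in DMSO against 326 to 387 FPKM in TSA embryos. All 8 egg markers were detected throughout, with sums of 323 to 362 FPKM in late 2-cell DMSO and 663 to 675 FPKM in A-485 embryos, and of 283 to 288 FPKM in DMSO and 373 to 383 FPKM in TSA embryos. Summed markers of cumulus cells and sperm stayed at or under 18.87 FPKM in every library. Those of fibroblasts were 14.2 to 16.4 FPKM in late 2-cell A-485 against 0.13 to 0.64 FPKM in DMSO embryos, and 5.51 to 8.07 FPKM in TSA against 0.38 to 1.73 FPKM in DMSO embryos. Of the 6 fibroblast markers, 1 averaged 1 FPKM or more in late A-485 embryos and 2 in TSA embryos. Dcn and Lum were at 0 in both groups and Col1a2 in late A-485 embryos. Summed markers of erythroid cells were at or under 4.71 FPKM except in TSA embryos, with 44.6 to 46.8 FPKM and Hbb-bs and Hbb-bt at 0. The mitochondrial share of counts was 10.5% to 12.5% in 2-cell DMSO libraries, 19.5% to 20.7% in late 2-cell A-485 libraries and 15.5% to 16.3% in TSA libraries. The part of the egg, fibroblast and erythroid markers and of the mitochondrial share in the results below was not tested, and all 10 genes were called lower at the late stage after either inhibitor also when libraries were scaled to mitochondrial or to total counts.

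The DNA that the ATAC data bear on differed in kind between these genes. The promoters of Alppl2 and Bod1l had a peak in early 2-cell DMSO embryos that an A-485 peak overlapped, while a start site inside Slc34a2 had a peak in A-485 embryos alone. The 250 bases before each start (RefSeq, GRCm38) are shown in the direction of the gene. Capitals mark a match, on either strand, to one of 6 short motifs: GGGCGG (Sp and Klf factors), CCAAT (NF-Y), TATAAA (the box bound by TBP), AGGTCA (nuclear receptors), TGACGTCA (CRE) and TAATCC (paired-like homeodomain factors).
Alppl2, minus strand, chr1:87089929-87090178: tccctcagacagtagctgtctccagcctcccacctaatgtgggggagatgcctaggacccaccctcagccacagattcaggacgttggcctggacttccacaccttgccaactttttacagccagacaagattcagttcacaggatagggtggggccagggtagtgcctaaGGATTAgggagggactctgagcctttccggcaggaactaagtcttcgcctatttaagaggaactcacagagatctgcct
Bod1l, minus strand, chr5:41844316-41844565: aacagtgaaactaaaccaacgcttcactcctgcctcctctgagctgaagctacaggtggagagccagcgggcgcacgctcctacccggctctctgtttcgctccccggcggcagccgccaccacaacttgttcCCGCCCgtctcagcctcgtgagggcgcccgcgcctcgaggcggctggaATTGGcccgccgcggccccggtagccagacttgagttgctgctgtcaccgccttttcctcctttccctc
Slc34a2, internal start, plus strand, chr5:53049103-53049352: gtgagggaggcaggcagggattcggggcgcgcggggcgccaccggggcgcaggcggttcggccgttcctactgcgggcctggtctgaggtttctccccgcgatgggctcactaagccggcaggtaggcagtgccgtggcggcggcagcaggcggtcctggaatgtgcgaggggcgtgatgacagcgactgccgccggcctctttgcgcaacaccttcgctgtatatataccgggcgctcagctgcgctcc
The Alppl2 promoter holds TAATCC once, read on the opposite strand as GGATTA, Bod1l holds GGGCGG and CCAAT once each on the opposite strand, and the Slc34a2 window holds none of the 6. The bases are 54.0% G or C in Alppl2, 65.2% in Bod1l and 69.6% in Slc34a2.

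Other peaks of early 2-cell DMSO embryos near these genes had no overlapping A-485 peak. The centres of 3 of them, 201 bases around the point of highest signal, are shown. They hold a motif that was more frequent in such peaks than in retained ones, as described with the chromatin data below.
Hipk1, centre 617 bases before the start site, in no annotated gene, minus strand, chr3:103792080-103792280: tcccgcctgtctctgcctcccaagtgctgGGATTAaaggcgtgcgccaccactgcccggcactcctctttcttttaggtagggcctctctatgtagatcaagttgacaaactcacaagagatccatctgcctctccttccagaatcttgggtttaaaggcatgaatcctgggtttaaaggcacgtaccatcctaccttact
Exoc3l2, in an intron, centre 639 bases from an internal start site, plus strand, chr7:19488317-19488517: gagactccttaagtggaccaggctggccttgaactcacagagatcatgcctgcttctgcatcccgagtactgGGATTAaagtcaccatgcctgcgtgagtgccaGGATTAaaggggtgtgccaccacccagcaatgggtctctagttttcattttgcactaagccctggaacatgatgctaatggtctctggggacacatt
Slc34a2, centre 5180 bases from its nearest start site, in no annotated gene, plus strand, chr5:53032801-53033001: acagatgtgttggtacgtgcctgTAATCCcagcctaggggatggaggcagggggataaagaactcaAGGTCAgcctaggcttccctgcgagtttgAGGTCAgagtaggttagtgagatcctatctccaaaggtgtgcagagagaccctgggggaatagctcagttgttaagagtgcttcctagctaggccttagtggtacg
TAATCC or its complement GGATTA stands once in the Hipk1 and Slc34a2 centres and 2 times in that of Exoc3l2. All 4 of these matches lie in sequence that the genome file prints in lower case as repeats.

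In DMSO embryos 3 genes encoding proteins of the cell surface or its membrane traffic went from almost no RNA in the zygote to high levels in the late 2-cell embryo. Alppl2 (chr1:87086694-87089928, minus strand) encodes an alkaline phosphatase held on the outer cell surface by a lipid anchor. Its level was 0.77 and 0.57 FPKM in the 2 zygote DMSO libraries, 9.57 and 9.62 FPKM in the early 2-cell, and 124 and 151 FPKM in the late 2-cell libraries of the A-485 experiment. With A-485 it was 0.49 and 0.75 FPKM in zygotes, 0.25 and 0.55 FPKM in early and 0.62 and 0.46 FPKM in late 2-cell embryos. None of the 6 A-485 libraries was thus higher than the higher zygote DMSO library, and the late A-485 mean was 0.393% of the DMSO mean, the smallest share of the 10 genes. In the TSA experiment Alppl2 was at 172 and 167 FPKM with DMSO and at 21.7 and 22.6 FPKM with TSA. The fitted late 2-cell change on the log2 scale was -8.40 (SE 0.20) after A-485 and -3.31 (SE 0.08) after TSA.

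Slc34a2 (chr5:53038081-53071664, plus strand), a cotransporter that carries sodium and phosphate into cells, had the highest level of the 10 genes in late 2-cell DMSO embryos. It was at 0.10 and 0.38 FPKM in zygote, 88.6 and 72.0 FPKM in early 2-cell and 359 and 431 FPKM in late 2-cell DMSO libraries. With A-485 the levels were 0.15 and 0.11 FPKM in zygotes, 1.29 and 1.13 FPKM in early 2-cell and 4.87 and 11.6 FPKM in late 2-cell libraries. The A-485 libraries lay below the DMSO libraries at both 2-cell stages. Slc34a2 kept the largest share under TSA, with 156 and 130 FPKM against 422 and 416 FPKM in DMSO, or 34.2% of the DMSO mean. The log2 change was -5.80 (SE 0.15) in early A-485, -5.78 (SE 0.19) in late A-485 and -1.82 (SE 0.07) in TSA embryos.

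Exoc3l2 (chr7:19463331-19496762, plus strand) encodes a protein related to Sec6, a subunit of the exocyst that tethers vesicles to the plasma membrane. It was at 0.02 FPKM in both zygote DMSO libraries and at 0 in both with A-485. In DMSO it was at 5.82 and 5.30 FPKM in early and 71.3 and 80.4 FPKM in late 2-cell libraries, and with A-485 at 0 and 0.02 FPKM in early and 0.76 and 0.51 FPKM in late libraries. The early A-485 libraries together held 2 counts against 503 in DMSO, a ratio of 268 (exact 95% interval 73.8 to 2220, for counting error only). TSA embryos had 9.35 and 9.52 FPKM against 79.1 and 77.0 FPKM in DMSO. The late log2 change was -7.20 (SE 0.23) after A-485 and -3.38 (SE 0.09) after TSA, so like Alppl2 and Slc34a2 this gene was lower relative to DMSO after A-485 than after TSA.

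**Figure D1:**
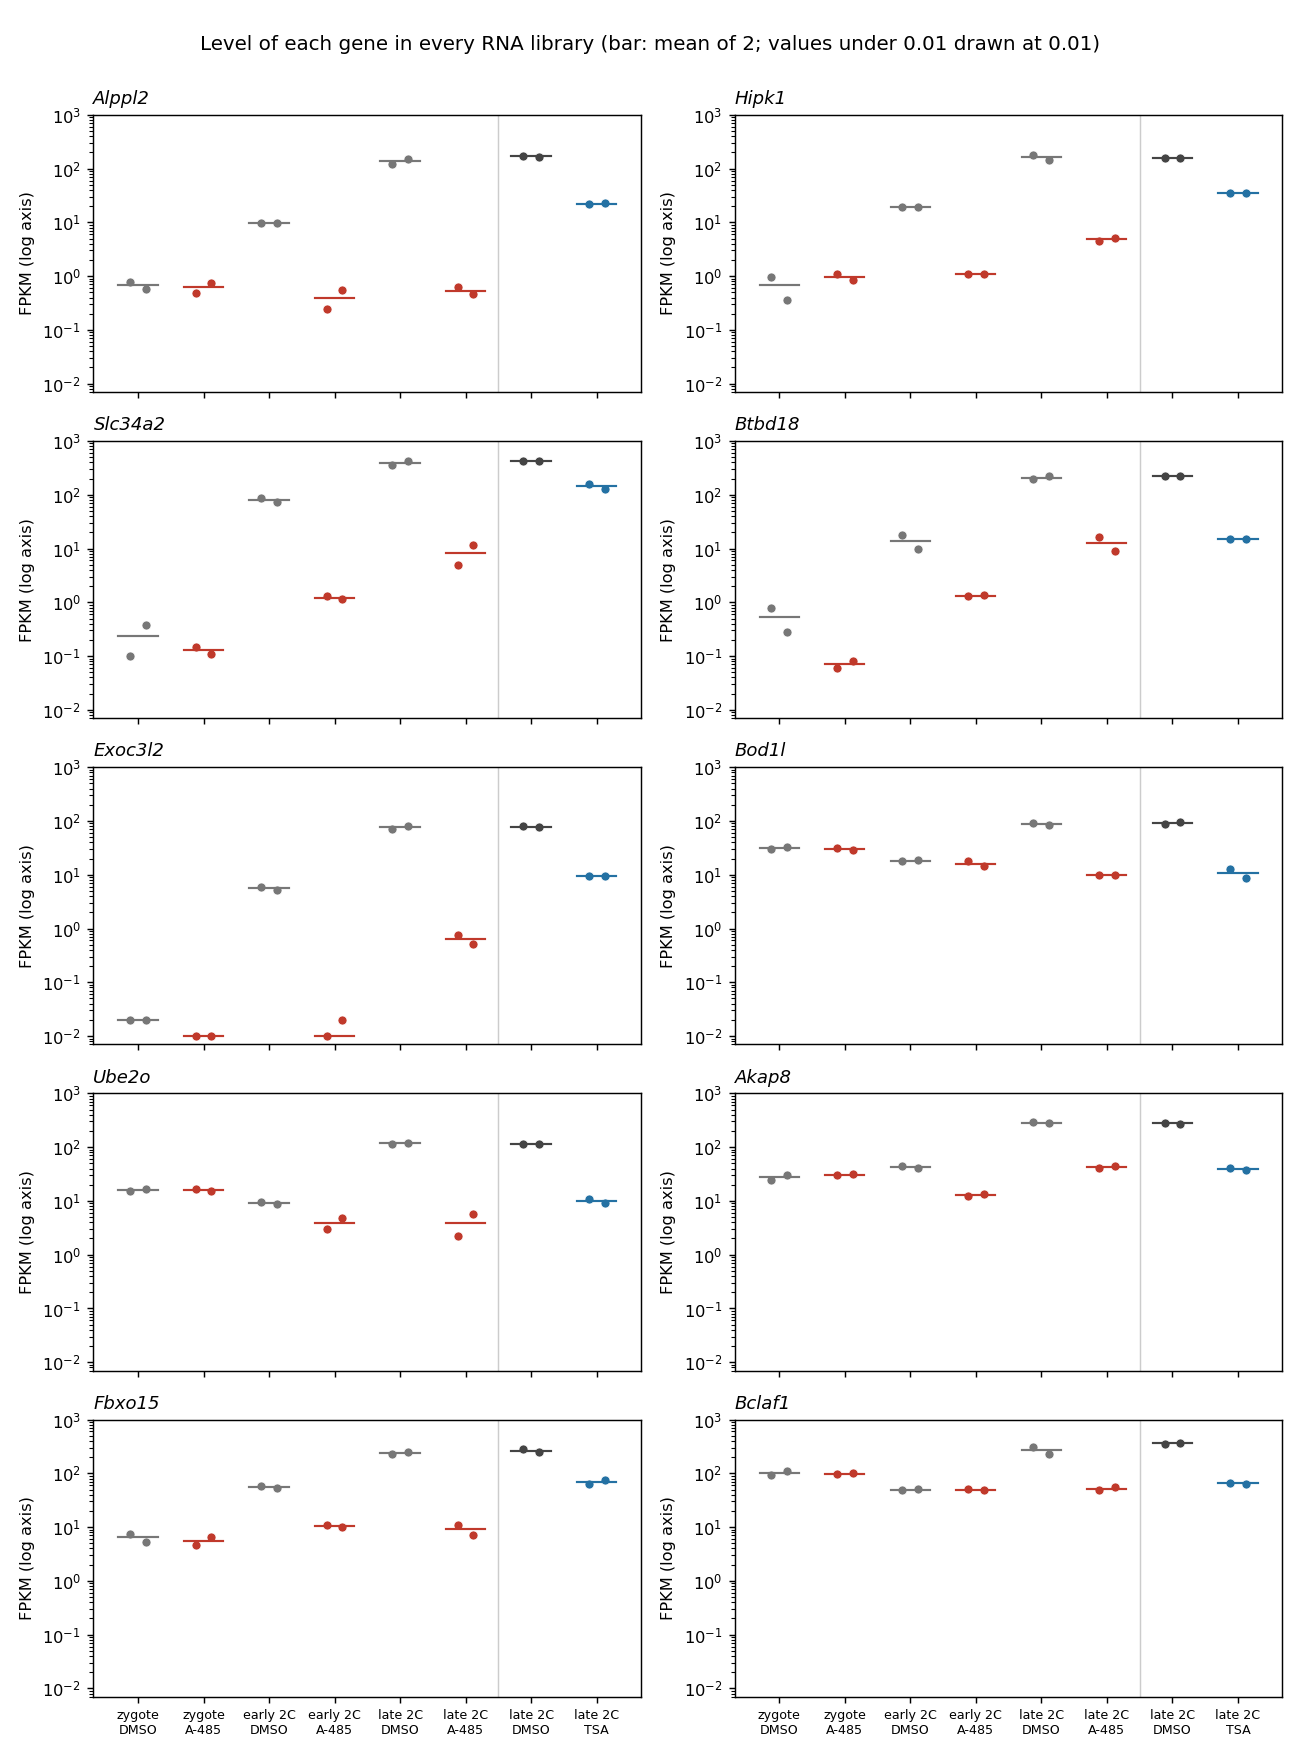
FPKM of each gene (vertical axis, log scale, values under 0.01 drawn at 0.01) in every library of the 8 RNA groups (horizontal axis), 1 panel per gene. Points are the 2 libraries of a group, bars their mean, and the vertical line parts the A-485 from the TSA experiment. The late 2-cell DMSO groups of both experiments are high in every panel, and only Ube2o, Bod1l, Akap8 and Bclaf1 have zygote libraries above 15 FPKM.

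Both genes of the ubiquitin system were already present in zygotes. Ube2o (chr11:116537740-116581447, minus strand) encodes a large enzyme that both receives ubiquitin and transfers it to substrates. It was at 15.6 and 16.6 FPKM in zygote DMSO, 9.51 and 8.76 FPKM in early 2-cell DMSO and 117 and 122 FPKM in late 2-cell DMSO libraries. A-485 libraries had 16.8 and 15.2 FPKM in zygotes, 3.02 and 4.84 FPKM in early and 2.24 and 5.59 FPKM in late 2-cell libraries. The late A-485 libraries were below all zygote libraries and lay on both sides of the early A-485 libraries. TSA embryos had 10.9 and 9.17 FPKM against 114 and 116 FPKM, overlapping the early 2-cell DMSO libraries. The log2 change was -1.38 (SE 0.17) in early A-485, -5.73 (SE 0.15) in late A-485 and -3.86 (SE 0.08) in TSA embryos.

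Fbxo15 (chr18:84934782-84981473, plus strand) encodes an F-box protein, the part of a ubiquitin ligase that selects substrates, and is widely used as a marker of embryonic stem cells. It was at 7.5 and 5.39 FPKM in zygote, 59.0 and 53.7 FPKM in early and 229 and 245 FPKM in late 2-cell DMSO libraries. The A-485 libraries had 4.59 and 6.46 FPKM in zygotes, 10.8 and 10.0 FPKM in early and 11.1 and 7.11 FPKM in late 2-cell libraries. The latter 2 stages overlapped each other. TSA embryos had 63.7 and 75.0 FPKM against 278 and 251 FPKM, which was above the early 2-cell DMSO level. The late log2 change was -4.80 (SE 0.15) after A-485 and -2.37 (SE 0.09) after TSA.

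Among the 5 genes for nuclear proteins, Hipk1 and Btbd18 were near 0 in zygotes. Hipk1 (chr3:103739815-103791563, minus strand), a nuclear kinase that phosphorylates homeodomain transcription factors and other regulators, was at 0.98 and 0.36 FPKM in zygote, 19.6 and 19.1 FPKM in early and 181 and 146 FPKM in late 2-cell DMSO libraries. With A-485 it was at 1.08 and 0.85 FPKM in zygotes, 1.10 and 1.11 FPKM in early and 4.51 and 5.10 FPKM in late libraries. The A-485 level at the late stage was below that of early DMSO embryos. TSA embryos had 35.4 and 34.5 FPKM against 160.05 and 159.77 FPKM. The late log2 change was -5.54 (SE 0.17) after A-485 and -2.83 (SE 0.06) after TSA.

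Btbd18 (chr2:84659079-84668780, plus strand) encodes a nuclear BTB-domain protein needed in male germ cells for transcription of piRNA precursors. Its level was 0.77 and 0.28 FPKM in zygote, 17.8 and 9.87 FPKM in early and 194 and 219.99 FPKM in late 2-cell DMSO libraries. With A-485 it was at 0.06 and 0.08 FPKM in zygotes, 1.31 and 1.36 FPKM in early and 16.4 and 9.17 FPKM in late libraries. The late A-485 libraries overlapped both the early DMSO and the TSA libraries, the latter at 15.3 and 15.1 FPKM against 226 and 227 FPKM in DMSO. The late log2 change was -4.50 (SE 0.16) after A-485 and -4.25 (SE 0.08) after TSA, the latter the largest TSA fall of the 10.

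Bod1l, Akap8 and Bclaf1 had substantial RNA in the zygote. On the log2 scale the late fall of Bod1l was similar after both inhibitors, while those of Bclaf1 and Akap8 were larger after TSA. Bod1l (chr5:41787538-41844315, minus strand) encodes a protein that protects stalled replication forks and works with the SETD1A histone methyltransferase. It was at 29.7 and 32.4 FPKM in zygote, 17.9 and 18.6 FPKM in early and 91.2 and 83.4 FPKM in late 2-cell DMSO libraries. Under A-485 the gene was at 30.8 and 29.0 FPKM in zygotes, 17.8 and 14.4 FPKM in early and 9.74 and 9.88 FPKM in late libraries. Its early A-485 libraries were both below the DMSO libraries, at 88.2% of the DMSO mean, while the late ones were at 11.2%. TSA embryos had 12.7 and 8.65 FPKM against 89.5 and 94.3 FPKM. The late log2 change was -3.49 (SE 0.11) after A-485 and -3.42 (SE 0.14) after TSA.

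Akap8 (chr17:32303672-32321238, minus strand) encodes AKAP95, a nuclear protein that anchors protein kinase A and binds chromatin and RNA. It was at 24.9 and 30.6 FPKM in zygote, 44.0 and 41.4 FPKM in early and 289 and 284 FPKM in late 2-cell DMSO libraries. A-485 embryos had 29.8 and 31.4 FPKM in zygotes, 12.2 and 13.3 FPKM in early and 41.1 and 44.2 FPKM in late libraries. TSA embryos had 41.0 and 36.8 FPKM against 276 and 274 FPKM, so it was the gene of the 10 whose late A-485 libraries both lay above its TSA libraries. The log2 change was -1.56 (SE 0.13) in early A-485, -2.46 (SE 0.12) in late A-485 and -3.20 (SE 0.07) in TSA embryos.

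Bclaf1 (chr10:20312469-20344613, plus strand) encodes a nuclear RNA-processing factor that works with THRAP3. It was the most abundant of the 10 in zygotes, at 91.5 and 109.54 FPKM with DMSO and 96.8 and 100.14 FPKM with A-485. In early 2-cell embryos it was at 48.8 and 50.1 FPKM with DMSO and 50.7 and 48.4 FPKM with A-485, so the groups overlapped. At the late stage the DMSO libraries had 313 and 230.07 FPKM and the A-485 libraries 48.1 and 55.0 FPKM, which overlapped the early DMSO libraries. TSA embryos had 67.1 and 64.5 FPKM against 358 and 366 FPKM. The late log2 change was -2.56 (SE 0.13) after A-485 and -2.88 (SE 0.06) after TSA.

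Stage by stage, none of the 10 genes was called changed by A-485 in the zygote, and most were called lower from the early 2-cell stage on. A gene was called changed at a Benjamini-Hochberg adjusted p under 0.05 if its level also moved 2-fold or more and averaged 1 FPKM or more in either group. In zygotes 9 genes could be tested and 0 were called by edgeR, with 0 at an unadjusted p under 0.05 and 0 by DESeq2, where 0.0657% of all 18258 genes tested were called lower. Of these 9, only 5 averaged 1 FPKM or more in either group. Alppl2, Slc34a2, Hipk1 and Btbd18 averaged less, so they could not be called whatever their change. Btbd18, the farthest from 0 of those tested, had a change of -1.90 (SE 0.91) with both A-485 libraries below DMSO. At the early 2-cell stage 8 of the 10 were called lower, all but Bod1l and Bclaf1, beside 7.9% of all genes tested. At the late 2-cell stage all 10 were called lower after A-485, beside 16.8% of all genes, and all 10 after TSA, beside 13.9%. The median log2 change of the 10 was -3.18 in early A-485, -5.17 in late A-485 and -3.26 in TSA embryos, against 0.00, 0.28 and 0.13 over all genes tested. These counts and medians restate the choice of the genes.

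The course in time set 2 kinds apart within the list. From the zygote to the early 2-cell stage in DMSO, 6 genes rose (Alppl2, Slc34a2, Exoc3l2, Fbxo15, Hipk1 and Btbd18, by 3.76 to 8.39 on the log2 scale), where 11.2% of all genes tested did, and Ube2o, Bod1l, Akap8 and Bclaf1 had changes of -0.76 to 0.35 that were not called. From the early to the late 2-cell stage all 10 rose in DMSO, by 2.11 in Bclaf1 to 3.80, where 15.9% of all genes did. The zygote DMSO mean was 0.0264% to 2.72% of the late 2-cell DMSO mean for the former 6 genes and 9.7% to 37.0% for the latter 4. The early 2-cell mean was 6.69% to 23.8% of the late one over all 10. Scaling to mitochondrial counts shifted the median gene by -1.27 in the first of these comparisons. Of the 10 genes, 3 were then called lower and 6 higher, beside 7938 lower and 1283 higher of all 20106 genes tested.

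Part of this course remained in embryos treated with A-485, whose step from early to late 2-cell came after the inhibitor was removed. From zygote to early 2-cell, Slc34a2, Fbxo15 and Btbd18 were called higher (2.87, 1.01 and 3.99 on the log2 scale) and Ube2o and Akap8 lower (-2.00 and -1.19), with Exoc3l2 not testable. Of all genes tested 6.85% were called higher and 15.6% lower. Mitochondrial scaling turned this balance to 1 higher and 5 lower, with a change of -0.54 for Fbxo15, beside 284 higher and 8880 lower of all 19858 genes tested. Total-count scaling gave 2 higher and 3 lower, beside 980 and 3622. From early to late 2-cell, Slc34a2, Hipk1, Btbd18 and Akap8 were called higher by 1.66 to 2.61 and Bod1l lower (-1.05), beside 12.8% of all genes higher and 7.15% lower. Total-count scaling gave 4 higher and 0 lower, beside 3525 and 966 of all 22854 genes tested. Mitochondrial scaling gave 4 higher and 2 lower, beside 1920 and 3982. The counts of Exoc3l2 went from 2 to 35 over both libraries, a ratio of 28.8 (exact 95% interval 7.39 to 247). These comparisons share libraries with the ones that chose the genes and carry no p-value here.

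Ordered by mean FPKM over the 8 groups, the late 2-cell DMSO groups stood first and second for each of the 10 genes. Their libraries overlapped for Slc34a2, Exoc3l2, Hipk1 and Bod1l, while the DMSO group of the TSA experiment was higher for Alppl2, Fbxo15, Btbd18 and Bclaf1 and lower for Ube2o and Akap8. TSA embryos came next for Alppl2, Slc34a2, Exoc3l2, Fbxo15, Hipk1 and Btbd18, overlapping early 2-cell DMSO for Btbd18 alone. For Ube2o, Bod1l and Bclaf1 the zygote groups stood there, with DMSO and A-485 libraries overlapping, and for Akap8 it was early 2-cell DMSO, which overlapped late A-485. The lowest mean was that of early 2-cell A-485 for Alppl2 and Akap8, of early 2-cell DMSO for Bclaf1, of late 2-cell A-485 for Ube2o and Bod1l, of zygote DMSO for Hipk1 and of zygote A-485 for the other 4. Libraries of the lowest and next-lowest groups overlapped for every gene but Btbd18 and Akap8. By counts per library total, Bclaf1 was higher in early 2-cell DMSO than in late A-485 embryos.

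The early DMSO level in FPKM gives a mark against which the late treated embryos can be placed. FPKM divides by a gene length estimated per library, and a placement by counts can differ. After A-485, 7 genes were below it in both late libraries in FPKM and Btbd18, Akap8 and Bclaf1 overlapped it, while 0 were above. By counts per library total, Akap8 was instead above it. It had 1246 of 13206163 and 1363 of 14922961 counts after A-485, against 1631 of 21496069 and 1498 of 21900799 in early DMSO. Bclaf1 was below it by counts, with 1562 and 1907 against 3188 and 3196 of the same totals. After TSA, 6 genes (Alppl2, Slc34a2, Exoc3l2, Fbxo15, Hipk1 and Bclaf1) were above it in FPKM, Ube2o and Btbd18 overlapped it, and Bod1l and Akap8 were below it. By counts per library total, Bclaf1 was instead below it after TSA (2515 of 18722215 and 2441 of 19517993). Akap8 overlapped it by counts (1299 and 1264 of the same totals). The late TSA mean was 2.31 times the early DMSO mean for Alppl2 and 0.59 times for Bod1l. The late A-485 mean was 0.06 times the early DMSO mean for Alppl2 and 1.04 times for Bclaf1.

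**Figure D2:**
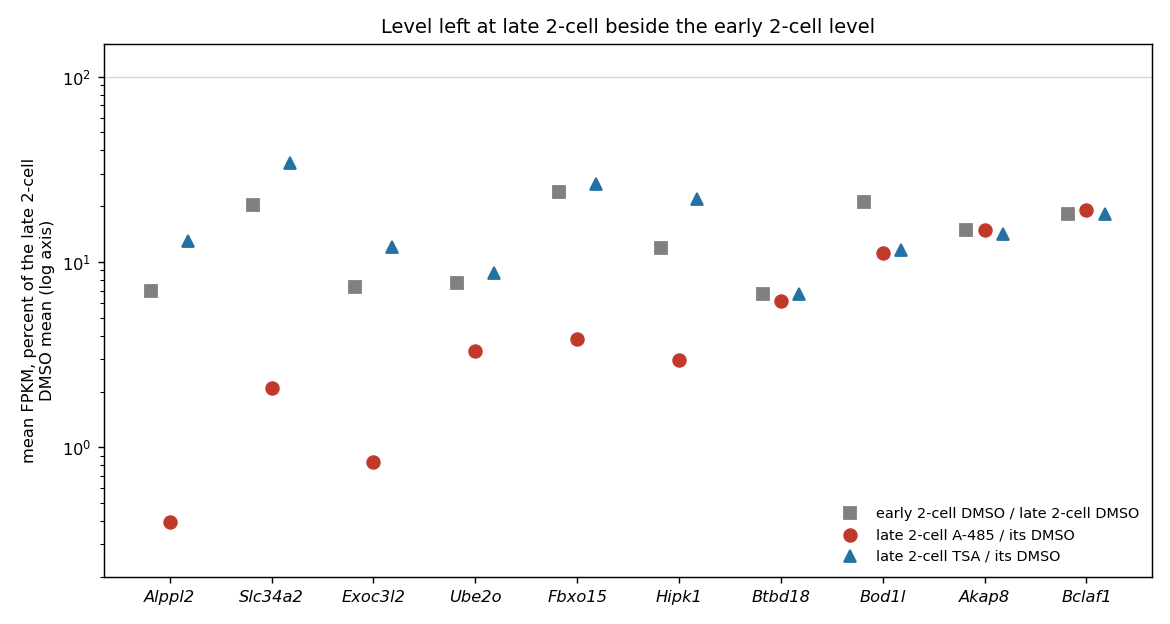
Mean FPKM at the late 2-cell stage after A-485 (circles) and TSA (triangles), and in early 2-cell DMSO embryos (squares), as a percent of the late 2-cell DMSO mean of the same experiment (vertical axis, log scale), for each gene (horizontal axis). A-485 left 0.393% of Alppl2 and 19.0% of Bclaf1, and TSA left 6.72% of Btbd18 and 34.2% of Slc34a2.

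The inhibitors were used at different times and with separate DMSO groups, so their changes are set side by side without a test. The log2 change after A-485 minus that after TSA was -5.09 for Alppl2, -3.96 for Slc34a2 and -3.82 for Exoc3l2. It was -2.71 for Hipk1, -2.43 for Fbxo15 and -1.87 for Ube2o, and between -0.25 and 0.74 for Btbd18, Bod1l, Bclaf1 and Akap8. Under A-485 the 10 genes thus spread over a wider range (-8.40 to -2.46) than under TSA (-4.25 to -1.82). The DMSO groups of the 2 experiments, from which the falls were measured, can also be set side by side as a description. The change from the A-485 to the TSA experiment was -0.01 to 0.34 over the 10 genes, and 0 were called by edgeR or by DESeq2, with 3 at an unadjusted p under 0.05, where 1.32% of all genes tested were called.

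**Figure D3:**
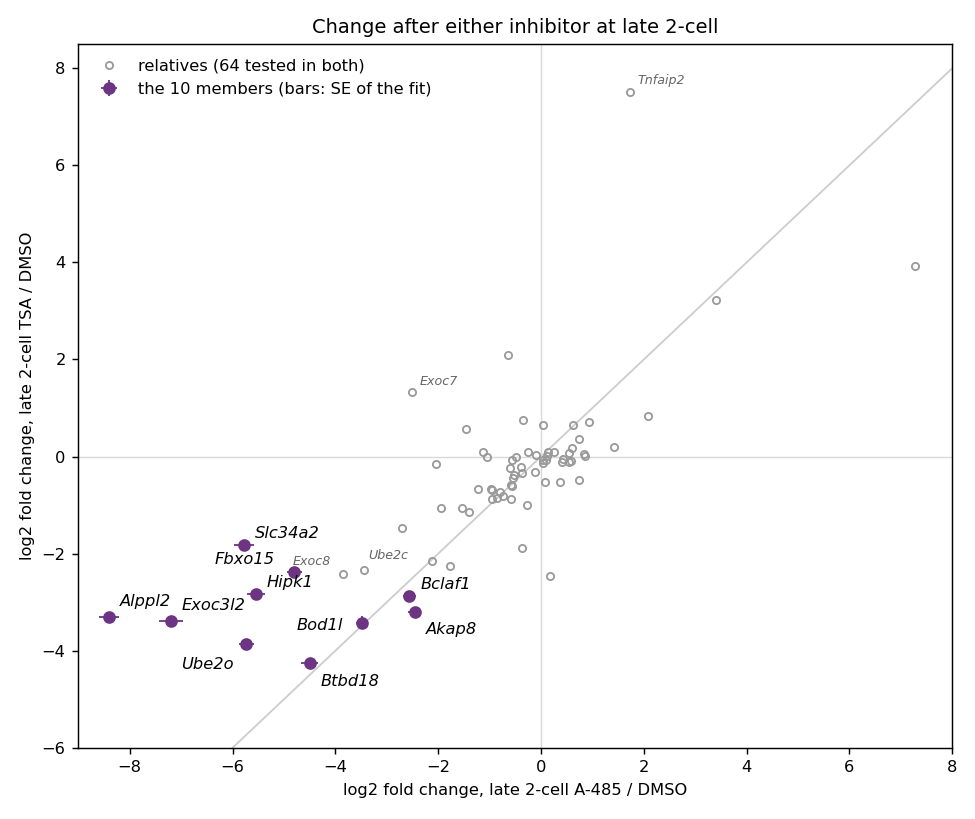
Log2 fold change at the late 2-cell stage after A-485 (horizontal axis) and after TSA (vertical axis) against the DMSO group of each experiment. Filled points are the 10 genes with bars of 1 SE of the fit, open points are 64 related genes, and the diagonal marks equal change. Alppl2, Exoc3l2 and Slc34a2 lie far to the left of the diagonal, and Btbd18, Bod1l, Bclaf1 and Akap8 lie close to it.

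Genes related to these 10 by family, complex or pathway were mostly not called changed after either inhibitor, like most genes tested. Of 68 such genes, picked by symbol, 63 could be tested in early 2-cell embryos, and 5 were called lower and 0 higher after A-485, beside 7.9% and 0.402% of all genes tested, with 3 called without DMSO replicate 1. At the late stage 14 of 66 were called lower and 2 higher after A-485, beside 16.8% and 10.5%, and 9 of 64 lower and 4 higher after TSA, beside 13.9% and 13.8%. For late A-485, mitochondrial scaling gave 29 lower and 1 higher, beside 5558 lower and 1517 higher of all 22822 genes tested. Total-count scaling gave 12 lower and 5 higher there, beside 3435 and 2935. For TSA, total-count scaling gave 6 lower and 8 higher, beside 2385 and 4106 of all 23429 genes tested. The median log2 change of the tested relatives was 0.06 in early A-485, -0.32 in late A-485 and -0.13 in TSA embryos.

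Among the relatives of Exoc3l2, the exocyst subunit Exoc8 fell in each comparison. It was at 0.47 and 0.31 FPKM in early A-485 against 2.06 and 1.84 FPKM in DMSO (log2 change -2.30, SE 0.34, edgeR adjusted p 5.6e-04), and at 1.23 and 1.38 FPKM in late A-485 against 16.4 and 16.3 FPKM (-3.85, SE 0.21, adjusted p 4.8e-08). With TSA it was at 4.41 and 4.23 FPKM against 17.9 FPKM in both DMSO libraries (-2.41, SE 0.11, adjusted p 4.1e-08). Exoc7, another subunit, fell after A-485 in counts (-2.51, adjusted p 0.019) and rose after TSA (1.32, adjusted p 0.0013). Its FPKM was 0.83 and 2.11 in late A-485 against 2.71 and 2.39 in DMSO, a smaller fall to 57.6%, and 9.56 and 11.6 in TSA against 4.57 and 3.06 in DMSO. Tnfaip2, which like Exoc3l2 encodes a Sec6-related protein, rose after TSA from 0.02 FPKM in both DMSO libraries to 8.97 and 8.68 FPKM (7.52, SE 0.38, adjusted p 8.0e-08), and Exoc3l4 rose to 1.80 and 1.19 FPKM (3.93, adjusted p 0.0026).

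Among ubiquitin enzymes, Ube2c, which serves the anaphase-promoting complex, fell after A-485 at the early stage (-1.07, adjusted p 8.6e-04) and at the late stage from 127 and 138 to 11.1 and 12.7 FPKM (-3.44, SE 0.18, adjusted p 3.5e-08). It fell after TSA from 121 and 126 to 34.0 and 28.3 FPKM (-2.33, SE 0.11, adjusted p 5.6e-08). Birc6, which like Ube2o encodes a very large enzyme of this class, fell at the late stage after A-485 (-2.12, adjusted p 6.8e-08) and TSA (-2.15, adjusted p 7.2e-09), while its early change was -0.12 (adjusted p 0.42). Ube2d1 rose in late A-485 embryos from 2.68 and 2.37 to 9.34 and 15.7 FPKM (2.08, adjusted p 0.0010). The ubiquitin ligase subunit Skp1a rose there from 147 and 145 to 449 and 455 FPKM (1.42, adjusted p 7.8e-07), whereas the F-box gene Fbxo34 fell after A-485 (-1.41, adjusted p 2.0e-06) and TSA (-1.15, adjusted p 5.7e-07).

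Among relatives of the nuclear genes, some fell after both inhibitors and some were not called. Hipk3 fell in late A-485 embryos from 55.5 and 56.6 to 8.37 and 8.15 FPKM (-2.71, SE 0.14, adjusted p 3.3e-08) and in TSA embryos from 54.4 and 60.4 to 24.5 and 29.2 FPKM (-1.48, adjusted p 3.1e-07). Hipk2 had changes of 0.55 (adjusted p 0.0026) and 0.07 (adjusted p 0.44), short of a 2-fold change. Bod1, the shorter relative of Bod1l, had changes of 0.09 and -0.07 (adjusted p 0.57 and 0.50), and Setd1a fell by 1.53 after A-485 (adjusted p 7.0e-07) and by 1.05 after TSA (adjusted p 1.8e-06). Thrap3, the partner of Bclaf1, fell in counts after A-485 (-1.77, adjusted p 3.4e-06) and TSA (-2.25, adjusted p 3.3e-08). Its FPKM, which divides by a gene length estimated in each library, was 49.2 and 43.3 in late A-485 against 42.6 and 52.9 in DMSO, so that the fall after A-485 is seen in counts alone.

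The remaining relatives that were called moved in fewer comparisons, with 1 exception, Akap1, a mitochondrial anchor of protein kinase A, which fell in late A-485 (-1.95, adjusted p 1.8e-06) and TSA embryos (-1.05, adjusted p 1.6e-06). Fbxo5, an inhibitor of the anaphase-promoting complex, and Bclaf3 fell in early A-485 embryos (-1.64 and -1.02, adjusted p 9.2e-05 and 0.0056). Alpl, another alkaline phosphatase (-2.05, adjusted p 0.014), Akap13 (-1.23, adjusted p 1.0e-04), Akap9 (-1.13, adjusted p 4.2e-05) and Btbd10 (-1.06, adjusted p 3.6e-05) fell in late A-485 embryos alone, and the call of Alpl was lost without DMSO replicate 2. After TSA Btbd1 fell in counts (-1.88, adjusted p 0.0051), with FPKM of 1.79 and 1.48 against 1.98 and 1.67 that overlapped DMSO, and Btbd3 rose from 0.23 and 0.22 to 1.16 and 1.31 FPKM (2.09, adjusted p 8.4e-04). Slc34a1, the kidney relative of Slc34a2, stayed under 1 FPKM with no call, and Exoc3l could not be tested. Where a gene was called after 1 inhibitor only, the difference between inhibitors was not tested.

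Genes beside these 10 on the chromosome were tested in the same way. There were 28 protein-coding neighbours with a start site within 50 kb of any start site of these genes, none of them beside Slc34a2 or Bod1l. Distances below are to the nearest such start site, which can be an internal one. After A-485, 2 of 22 tested were called lower and 0 higher at the early stage (1 without either A-485 library or without DMSO replicate 2), beside 7.9% and 0.402% of all genes tested. At the late stage it was 5 of 24 lower and 2 higher, beside 16.8% and 10.5%, and after TSA 3 of 26 lower and 3 higher, beside 13.9% and 13.8%.

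Timm21, a subunit of the mitochondrial import machinery, overlaps Fbxo15 on the other strand. It starts 592 bases from an internal start site of Fbxo15, not from its first one. Timm21 did not share the fall of Fbxo15. It was at 31.9 and 18.4 FPKM in late A-485 against 26.6 and 27.4 FPKM in DMSO (0.41, adjusted p 0.24), and at 27.9 and 27.1 FPKM with TSA against 14.03 and 14.46 FPKM (0.43, adjusted p 0.11). Mark4, 4510 bases from Exoc3l2, and Ctnnd1, 8314 bases from Btbd18, were not called in any of these comparisons.

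Akap8l, both the closest relative of Akap8 and a neighbour 11661 bases away, fell after A-485 and not after TSA. It was at 1.21 and 2.96 FPKM against 13.1 and 13.0 FPKM in early embryos (-1.95, SE 0.24, adjusted p 1.4e-04) and at 19.1 and 8.5 FPKM against 34.8 and 27.3 FPKM in late embryos (-1.46, SE 0.29, adjusted p 0.0018). With TSA it was at 53.5 and 60.1 FPKM against 30.2 and 36.0 FPKM (0.56, adjusted p 0.0035), short of a 2-fold change. Med19, a Mediator subunit gene 18856 bases from Btbd18, fell after A-485 (-2.15, adjusted p 8.3e-06) with a TSA change of 0.19 (adjusted p 0.21). For these genes the difference between the inhibitors was not tested.

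Beside Hipk1, 2 genes fell after both inhibitors. Ap4b1, an adaptor subunit gene, fell in early A-485 (-1.53, adjusted p 0.024), late A-485 (-2.59, adjusted p 2.1e-04) and TSA embryos (-2.85, adjusted p 1.7e-05). Dclre1b, a nuclease gene whose product protects telomeres, fell from 4.6 and 4.56 to 0.56 and 0.58 FPKM after TSA (-4.40, SE 0.33, adjusted p 1.4e-06) and by 1.89 in late A-485 embryos (adjusted p 0.0046). Beside Ube2o, Prpsap1 fell by 1.36 after A-485 (adjusted p 6.2e-05) and by 1.44 after TSA (adjusted p 7.8e-07), while Rhbdf2, a rhomboid-related membrane protein gene, rose after TSA from 3.02 and 2.99 to 18.8 and 17.5 FPKM (2.20, adjusted p 3.8e-07). Sphk1, a lipid kinase gene beside Ube2o, and Tmx2, beside Btbd18, rose after TSA (2.03 and 1.23, adjusted p 0.0064 and 0.014). Bloc1s3, beside Exoc3l2, and Bcl2l15, beside Hipk1, rose in late A-485 embryos (2.94 and 4.39, adjusted p 0.0042 and 0.0064), the latter call being lost without A-485 replicate 1. The early call of Ap4b1 was lost on leaving out either early A-485 library or DMSO replicate 2, where its changes were -1.54, -1.51 and -1.33.

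**Figure D4:**
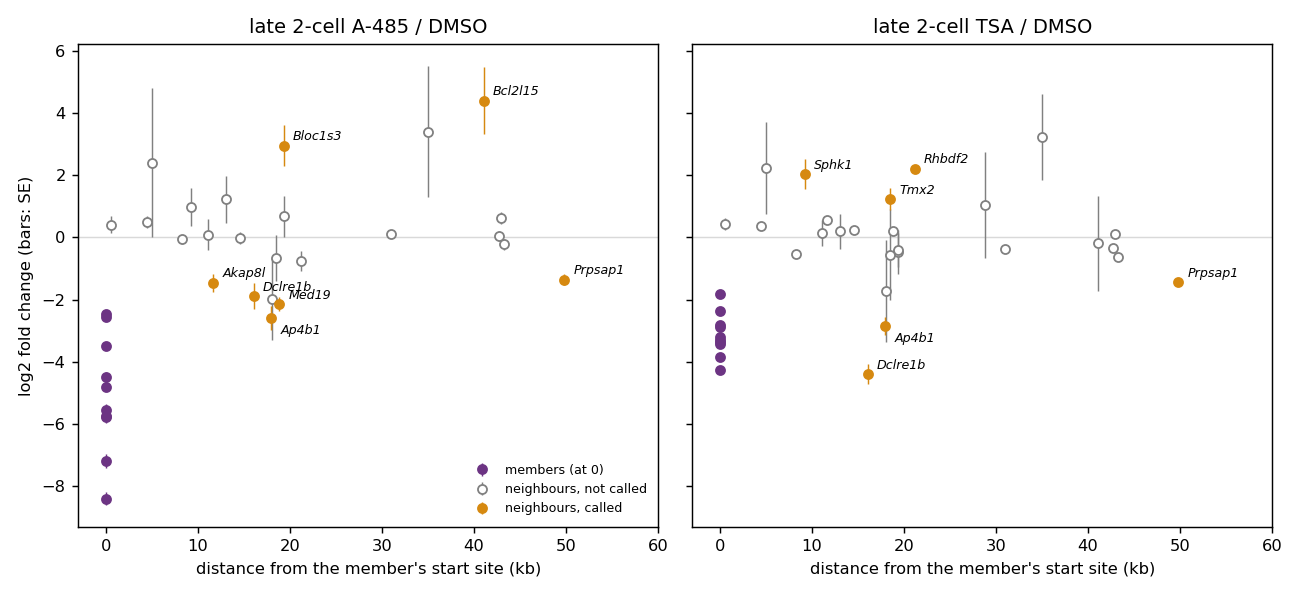
Log2 fold change of each neighbouring protein-coding gene at the late 2-cell stage (vertical axis, bars 1 SE of the fit) after A-485 (left) and after TSA (right). The horizontal axis gives the distance in kb between its start site and the nearest start site of the gene it lies beside. Filled orange points with names were called changed, open points were not, and the 10 genes themselves stand at 0 kb. Timm21, the closest at 592 bases from an internal start site of Fbxo15, lies near 0 in both panels.

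Most ATAC peaks of early 2-cell DMSO embryos around these genes had no counterpart under A-485, which was the case for peaks in general. Within 50 kb of their start sites there were 53 such peaks, of which 38 overlapped no A-485 peak (71.7%), beside 78.3% of all 27693 peaks. Of the distal peaks, more than 2.5 kb from any start site, 21 of 23 had no counterpart, beside 94.5% of all distal peaks. Of the peaks within 1 kb of a start site of any gene, it was 11 of 24, beside 38.6%, and the remaining 6 peaks all lacked a counterpart, beside 95.1%. Each list pools its replicates and the A-485 list was shorter (13712 peaks), so no test can be made, and a missing peak may also be one under the caller's limit.

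The gene with the most peaks was Akap8, with 13 in DMSO, of which 10 had no A-485 counterpart. It was 6 of 9 for Ube2o, 5 of 6 for Exoc3l2, 4 of 5 for Fbxo15, 2 of 5 for Btbd18, 2 of 4 for Alppl2 and 2 of 3 for Bclaf1. Hipk1 and Slc34a2 kept 0 of 4 and 0 of 3 of their DMSO peaks, and Bod1l kept its only one. The losses thus ran from none for Bod1l to every peak for Hipk1 and Slc34a2.

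At the promoters themselves, 9 of the 10 genes, all but Slc34a2, had a peak within 1 kb of one of their start sites in early 2-cell DMSO embryos, beside 31.7% of protein-coding genes. It was 8 in early 2-cell A-485 embryos, beside 40.9%. With each list held to the same number of strongest peaks, it was 5 in DMSO and 7 in A-485, so the order of these groups depends on the peak limit. With the full lists and only the start site of the longest coding transcript, it was 8 in DMSO and 6 in A-485. In the full lists it was 4 in late 1-cell embryos with either treatment, beside 26.2% in DMSO and 24.7% in A-485. The genes were not all the same, as Alppl2 had such a peak in DMSO alone and Ube2o in A-485 alone. With only the start site of the longest coding transcript, it was 4 in late 1-cell DMSO and 3 in late 1-cell A-485. The 10 genes are highly expressed at the next stage and were not chosen at random in that respect. Of the 11 DMSO promoter peaks, 6 had an A-485 counterpart, at Alppl2, Ube2o, Btbd18, Bod1l, Akap8 and Bclaf1. The fold enrichment over local background at these start sites was 6.58 in DMSO and 7.52 in A-485 for Alppl2, 6.38 and 6.40 for Ube2o, 6.32 and 7.40 for Btbd18, 5.81 and 9.03 for Bod1l, 5.87 and 7.11 for Akap8, and 8.08 and 6.85 for Bclaf1. An early 2-cell A-485 peak therefore stood at the promoter of genes whose RNA at that stage was 43.0% (Ube2o) or 4.17% (Alppl2) of the DMSO mean. At the late stage, for which there are no ATAC data, it was 3.28% and 0.393%.

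The promoter peaks without a counterpart were both peaks at an internal start of Exoc3l2, the Hipk1 peak printed above (fold enrichment 6.54), the start-site peak of Fbxo15 and an internal one of Bclaf1. At Slc34a2 the order was the reverse, with an A-485 peak of fold enrichment 8.26 over the internal start printed above and no DMSO peak there. Of the 9 genes with a DMSO promoter peak, only Alppl2, Fbxo15, Akap8 and Bclaf1 had one that overlapped a late 1-cell DMSO peak.

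**Figure D5:**
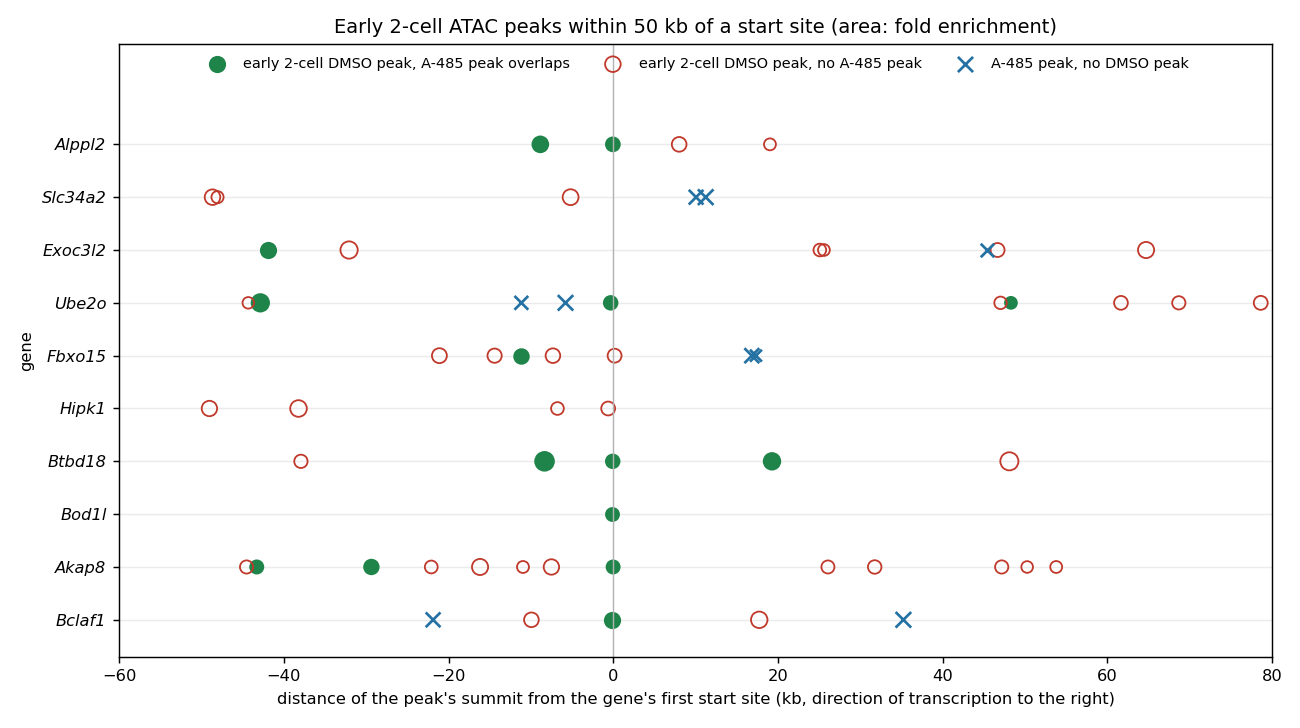
Early 2-cell ATAC peaks within 50 kb of any start site of each gene (rows), by distance in kb of the summit from the first start site in the direction of the gene (horizontal axis), with area by fold enrichment. Filled points are DMSO peaks that an A-485 peak overlaps, open points are DMSO peaks that none does, and crosses are A-485 peaks alone. The points at the start of Alppl2, Ube2o, Btbd18, Bod1l, Akap8 and Bclaf1 are filled, and all those of Hipk1 and Slc34a2 are open.

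Promoter windows of 300 bases from RefSeq matched 8 of the genes. GGGCGG was found in those of Akap8, Bclaf1, Bod1l and Exoc3l2, beside 35.7% of all 32851 windows, and CCAAT in those of Akap8, Bod1l, Btbd18 and Hipk1, beside 37.4%. TATAAA was found in 0 of the 8, beside 13.6%, and so were AGGTCA, beside 16.3%, and TGACGTCA, beside 1.79%. TAATCC was found in that of Alppl2 alone, beside 7.06%. The searches covered both strands, and none of the 6 motifs contains another. The shown Btbd18 promoter (chr2:84658829-84659078, plus strand) holds CCAAT once on each strand.
Btbd18, plus strand, chr2:84658829-84659078: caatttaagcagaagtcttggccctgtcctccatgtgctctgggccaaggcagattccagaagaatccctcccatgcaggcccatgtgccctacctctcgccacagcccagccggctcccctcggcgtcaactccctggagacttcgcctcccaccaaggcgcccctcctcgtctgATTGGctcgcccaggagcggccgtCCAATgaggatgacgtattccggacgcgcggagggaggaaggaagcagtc

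In peak centres the picture differed by fate. TAATCC stood in 28 of 34 centres near the genes whose peak had no A-485 counterpart, and in 2 of 14 centres of those that had one. Over all early 2-cell DMSO peaks the shares were 73.0% of 21689 and 9.54% of 6004, so the pattern was not particular to these genes. Peaks beside Fbxo15 were not searched. Of the 33 matches in lost peaks near the genes, 32 lay in repeat sequence, as did 91.4% of such matches in all lost peaks, and the same letters stand in the B1 family of short interspersed repeats. Within classes the share over all peaks was 75.0% in lost against 29.7% in retained distal peaks, and 59.9% against 5.17% in promoter peaks. The search of peak centres was added after the promoter windows had been seen.

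Genes whose mean RNA level over the 8 groups was among the most like the average profile of the 10, among 7819 genes with a mean of at least 10 FPKM in any group, were Rnf7 (Pearson r 0.999), Map1lc3b (0.998), Snrnp35 (0.997) and Tomm20 (0.994). The means are of 2 libraries each and the groups share stage and depth, so r is a description over 8 points. Snrnp35, a subunit of the minor spliceosome, was at 49.1 FPKM in late DMSO against 1.43 FPKM in A-485, and at 60.9 FPKM in DMSO against 4.71 FPKM in TSA embryos. Rnf7, a RING subunit of ubiquitin ligases, was at 66.3 against 4.64 FPKM and at 66.9 against 11.5 FPKM. Among the 10 genes themselves r with the average ran from 0.773 for Bod1l to 0.984 for Exoc3l2.

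Reads of most of these genes were unambiguous in the authors' quantification. The expected counts were whole numbers in every library, and their posterior SD was 0 in 9 genes and at most 0.19 in Bclaf1. Other annotated genes overlap Alppl2, Slc34a2, Exoc3l2, Ube2o, Fbxo15, Hipk1 and Btbd18, and the kit keeps strand but the strand setting of the counting is not stated, so reads of overlapping genes on the other strand (Timm21 for Fbxo15) may be mixed with theirs. No other gene overlaps Bod1l, Akap8 or Bclaf1.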

How the data were processed

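RNA of whole embryos was sequenced by the authors with the SMART-Seq Stranded Kit, trimmed with Trimmomatic 0.39, mapped to GRCm38 with STAR 2.7.8a and quantified per gene with RSEM 1.3.1. The deposited tables give expected counts and FPKM for 1 library each. ATAC-seq reads went through the ENCODE pipeline, version 2.1.2, whose aligner and peak caller settings are not given in the sources used here, and the authors deposited peaks reproducible between both replicates, each with a scaled score, a fold enrichment (a ratio to local background) and a -log10 q-value. H3K27ac CUT&RUN samples were not analysed here.

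Expected counts were rounded and tested with edgeR 4.0.16 (R 4.3.3), with TMM scaling, quasi-likelihood F tests and Benjamini-Hochberg adjustment over all genes whose counts reached 10 in total in the 4 libraries compared. Fold changes come from this fit and percentages from FPKM, which are scaled to the library total and to a length estimated per library, so these differ somewhat. Tests were run on simulated counts first. Alternatives were DESeq2 1.42.0, total-count and mitochondrial scaling, no count filter, no FPKM cutoff, all 16 libraries in one fit, a replicate block and leaving out each library. Gene IDs were matched to GENCODE M21 on the stable part for 55144 of 55385 genes. Lines of a peak list with the same interval were joined, peaks were shared at 1 base of overlap (bedtools 2.31.1), and relatives and neighbours were fixed by symbol and by distance. Promoter windows of Ube2o and Fbxo15 were not matched. The text names the 10 genes, relatives and neighbours that were called, some near relatives and neighbours that were not, and genes among the 5 most alike. A few items that these rules would name are not reported here. Genes and lists were chosen with earlier results of these data known. Libraries of a group differed beyond counting noise (chi-square per degree of freedom 8.99 to 18.0), so each was counted as 1 sample.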

Additional observations from a re-analysis of the deposited data

How the results depend on the processing

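The counts of the 10 genes called in the 9 comparisons, over both directions, stayed within 1.5 times the reported ones under DESeq2, both other scalings, no count filter, no FPKM cutoff, 1 fit over 16 libraries and the replicate block. The split by direction moved in comparisons between stages. Mitochondrial scaling gave 5 lower and 1 higher against 2 and 3 for zygote to early 2-cell under A-485. It gave 3 lower against 0 for the same step in DMSO, and 2 lower against 1 for early to late 2-cell under A-485. For the latter, total-count scaling and 1 fit over 16 libraries gave 0 lower. Counts over all genes under the other scalings stand with these comparisons above. Leaving out 1 library gave 8 for early A-485, 10 for late A-485, 10 for TSA, 6 for zygote to early and 10 for early to late 2-cell in DMSO, 4 to 5 for each of the 2 steps under A-485, and 0 for zygote A-485 and for DMSO against DMSO. For relatives it gave 3 to 6 in early A-485 (3 without DMSO replicate 1, against 5), 16 to 17 in late A-485 and 12 to 14 in TSA. For neighbours it gave 1 to 2, 7 to 8 and 5 to 6. Where this left 1 library in a group, it was assumed to vary like the other group. Mitochondrial scaling raised the relatives called in late A-485 to 30 from 16, and turned the change of Fbxo15 from zygote to early 2-cell under A-485 to -0.54. It shifted the median gene by -0.64 in late A-485 (5558 lower and 1517 higher, against 3824 and 2406), and total-count scaling by 0.35 in TSA (2385 lower and 4106 higher, against 3247 and 3237) and by 0.19 in late A-485 (3435 and 2935). Without 1 library, late A-485 calls were lost for Alpl (-1.90 without DMSO replicate 2) and Bcl2l15 (3.76 without A-485 replicate 1). With the early 2-cell DMSO list cut to its strongest 7094 peaks, the length of the shortest of the 4 lists, 5 of the 10 genes had an early 2-cell DMSO promoter peak, against 9. The share of peaks near the genes without an A-485 counterpart was 58.6% to 71.7% under other overlaps, windows and peak limits.

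Libraries of different groups share replicate numbers, but their deviations from the group means did not go together, and nothing says that a number marks a shared collection. With the replicate block 8 genes were called in early A-485, 10 in late A-485 and 10 in TSA, 16 relatives in late A-485 and 13 in TSA, as without it.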
